A study of Mus musculus with 8 samples.

Results

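The genes described here are *Ly6a*, *Ly6c1*, *Ly6c2* and *Ly6e*, 4 of the 55335 genes in the count table, taken by their symbols as the surface proteins of the Ly6 family that T cells are known for. The RNA came from tumor-infiltrating lymphocytes (TILs) sorted as CD8+CD44+PD-1+, that is, antigen-experienced CD8+ T cells, out of subcutaneous tumors of MC38, a colon carcinoma line of mice. The 4 KO samples came from Cd4-Cre+Lsd1f/f mice, in which Cre under *Cd4* control removes floxed *Lsd1* while T cells develop in the thymus, and the 4 WT samples from their Lsd1f/f littermates, so both groups carry the floxed allele and the KO mice alone carry Cre. WT samples were pools of 2 mice and KO samples single mice, so pooling and genotype cannot be told apart. The C57BL/6 mice were 6 to 10 weeks old, tumors were taken on day 18 by the protocol (14 days in the design text), and 10000 to 20000 cells were sorted per sample.

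Ly6 proteins are small cysteine-rich domains held in the outer membrane by a glycosylphosphatidylinositol (GPI) anchor, and most of their genes lie side by side in 1 cluster. *Ly6a* encodes Sca-1, which marks hematopoietic stem cells and rises on activated T cells; *Ly6c1* and *Ly6c2* encode the near-identical Ly6C antigens of memory CD8+ T cells, monocytes and, for Ly6C1, endothelium; *Ly6e* encodes TSA-1 (Sca-2), which is known from immature thymocytes. Interferons are known to induce genes of this family.

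WT samples carry the names S1, S2, S3 and S4, and KO samples S5, S6, S7 and S8. Their total counts lay between 11657807 and 30295406, and levels are given as CPM, counts scaled by library size and TMM factors, of which 3 counts make 0.106 to 0.25. Of the genes, 15378 passed the filter on low counts and were tested with edgeR's quasi-likelihood test, and "called" means that a gene differed by over 1.5-fold with an adjusted p under 0.01. The targeted gene *Kdm1a*, which encodes LSD1, had 44.9 ± 1.87 CPM in WT samples (SD, n = 4) and 30.6 ± 4.03 CPM in KO samples, counted over all its exons and not over the deleted part alone. Markers of macrophages and monocytes moved with genotype, since 13 of the 16 tested were called lower (11 without S3, where *Adgre1* and *Ms4a7* missed the p threshold) and *Ccr2* higher in KO. Samples S3 and S5 stood apart. S3 (WT) had the highest macrophage marker score, with a mean log2 CPM of 5.65, whereas S1, S2 and S4 lay between 4.39 and 4.62 and KO samples between 1.95 and 2.8. S5 (KO) had lower levels of interferon target genes than S6 to S8, as described below. Values of the Ly6 genes are given with and without these samples, and for other named genes a call lost without either is stated beside the gene.

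The sequences of *Ly6c1* and *Ly6c2* show how close the paired genes are. The coding sequences of Ly6c1-201 and Ly6c2-201 (GENCODE M21, GRCm38, minus strand of chromosome 15, from chr15:75045402-75048511 and chr15:75108543-75111667) are both 396 bases long and differ at 9 positions, an identity of 97.7%. The first 270 bases, which hold 7 of the 9, are printed, with the bases that differ in capitals.
Ly6c2: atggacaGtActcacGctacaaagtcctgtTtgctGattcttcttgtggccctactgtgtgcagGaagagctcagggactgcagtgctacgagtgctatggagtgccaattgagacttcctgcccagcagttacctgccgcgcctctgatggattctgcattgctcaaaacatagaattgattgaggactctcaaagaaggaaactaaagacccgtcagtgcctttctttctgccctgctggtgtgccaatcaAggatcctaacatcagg
Ly6c1: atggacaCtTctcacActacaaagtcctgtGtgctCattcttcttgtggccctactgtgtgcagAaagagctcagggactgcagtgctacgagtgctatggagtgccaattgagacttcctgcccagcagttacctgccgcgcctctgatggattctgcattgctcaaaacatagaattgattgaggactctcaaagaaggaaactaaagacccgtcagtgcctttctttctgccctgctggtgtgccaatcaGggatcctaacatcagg
*Ly6a* shared 81.7% of aligned coding positions with *Ly6c2*, and *Ly6e* shared 50.6%.

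This bears on the counts, because the reads were 43 and 42 bases long by the methods (75 in the design text). Windows of 75 bases and the pairing of reads were not examined, and longer windows would be shared less often. Of all 42-base windows in the annotated transcripts of each gene, 25.3% of those of *Ly6c1* and 16.4% of those of *Ly6c2* were found in both genes. In *Ly6a*, 24.5% of windows were found in another gene, most of them in *Ly6c1* (18.1% of windows). In *Ly6e*, only 4 of 4120 windows were found in another gene, the pseudogene *Ly6e-ps1*. Windows of 43 bases gave 24.7%, 16%, 23.8% and 3 of 4128 for the same 4 quantities. How reads that fit more than 1 gene were counted is not given in the sources used here. The levels of *Ly6a*, *Ly6c1* and *Ly6c2* are therefore uncertain by the share of such reads, and that of *Ly6e* was hardly exposed to it. No other annotated gene overlapped the span of any of the 4.

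*Ly6a*, *Ly6c2* and *Ly6e* were among the most abundant transcripts of these TILs, and *Ly6c1* was close to absent. Per kilobase of exon, *Ly6a* had 193 ± 5.81 RPKM (CPM per kilobase; SD, n = 4) in WT and 311 ± 57.5 in KO. *Ly6e* had 131 ± 13.4 RPKM in WT and 89 ± 9.73 in KO, and *Ly6c2* had 83 ± 12.7 in WT and 141 ± 47 in KO. On this scale the order of the levels was *Ly6a*, *Ly6e*, *Ly6c2* in WT, where the SD ranges of all 3 were apart. It was *Ly6a*, *Ly6c2*, *Ly6e* in KO, where *Ly6c2* and *Ly6e* were not separated beyond their spread. Averaged over the 8 samples, *Ly6a* stood at percentile 99.4 of the tested genes on this per-length scale, *Ly6c2* at 98.2 and *Ly6e* at 98.2. These lengths are the union of all annotated exons, which for *Ly6e* includes many alternative transcripts. They were 1205 bases for *Ly6a*, 2740 for *Ly6c2* and 3784 for *Ly6e*. The single transcripts Ly6a-201, Ly6c2-201 and Ly6e-201 have 819, 822 and 2281 bases. The order among the 3 genes and their percentiles therefore depend on the length used.

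*Ly6a* was higher in KO. The WT samples S1 to S4 had 230.0, 229.9, 229.0 and 243.6 CPM, and the KO samples S5 to S8 had 318.8, 362.8, 475.4 and 342.7 CPM. Every KO sample lay above every WT sample, and the WT samples lay much closer together than the KO samples, of which S7 was the highest. Mean levels were 233 ± 7 CPM in WT and 375 ± 69.3 in KO (SD, n = 4), a log2 fold change of 0.69 with a standard error (SE) of 0.11 and an adjusted p of 7.45e-04 by edgeR's quasi-likelihood test. *Ly6a* was thus called, as were 2.91% of all tested genes in this direction. Samples of the groups did not overlap for 17.3% of tested genes. The fold change lay close to the threshold, and without S7 it fell to 0.55 (adjusted p = 0.00207), below the log2 value of 0.58 that a 1.5-fold change takes. Without S5 it was 0.76 (adjusted p = 3.33e-04).

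*Ly6c2* stood at 208.7, 264.5, 247.8 and 189.1 CPM in the 4 WT samples, in the order S1 to S4. The KO samples S5 to S8 had 196.7, 427.4, 477.6 and 448.8 CPM. S6, S7 and S8 lay far above all WT samples, whereas S5 lay within the WT range. Mean levels were 228 ± 34.7 CPM in WT and 388 ± 129 in KO, with a log2 fold change of 0.77 (SE 0.2) and an adjusted p of 0.0186, which missed the threshold of 0.01. At S5, *Ly6c2* had 0.436 times the mean of S6 to S8 (451 ± 25.2 CPM, n = 3). Without S5, the log2 fold change was 0.99 (SE 0.12, adjusted p = 3.12e-05) and the gene was called. It was also called with GC content offsets (0.82, adjusted p = 0.00917), and the call thus turned on 1 sample and on the processing. Adding the counts of *Ly6c1* to it gave a log2 fold change of 0.76 (adjusted p = 0.0194).

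*Ly6e* went in the other direction. Its level was 440.2, 542.2, 464.0 and 534.3 CPM in the WT samples S1 to S4, against 298.2, 330.2, 386.8 and 331.4 CPM in the KO samples S5 to S8. Every KO sample lay below every WT sample. Mean levels were 495 ± 50.7 CPM in WT and 337 ± 36.8 in KO, a log2 fold change of -0.56 (SE 0.1) with an adjusted p of 0.00189. The p-value passed, as for 5.63% of tested genes at any fold, but the fold was 1.47 and *Ly6e* was not called, whereas 1.99% of tested genes were called lower. Without S1, S3 or S7 it passed both thresholds, at -0.61, -0.59 and -0.63, and without S2 it passed neither (-0.51, adjusted p = 0.0106). Without S5 it was at -0.50 (adjusted p = 0.006). Macrophage markers were also lower in KO, with a summed level, leaving out *Ccr2*, of 347 to 971 CPM in WT and 65.6 to 123 CPM in KO. Their part in the *Ly6e* difference was not tested.

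Reads of *Ly6c1* were few, with 0, 1, 40 and 2 counts in the WT samples S1 to S4 and with 0, 16, 1 and 11 in the KO samples S5 to S8. It was the one gene of the 4 that the filter on low counts removed. S3 alone held 40 of the 43 WT counts. The groups overlapped, and no difference was detectable at this depth: kept in the fit, the log2 fold change was -0.96 with an SE of 1.43 (adjusted p = 0.752), and it turned to 2.56 (adjusted p = 0.45) without S3 and was -0.54 (adjusted p = 0.889) without S5. *Ly6c1* never exceeded 0.346% of the counts of the 4 genes in any sample.

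**Figure D1:**
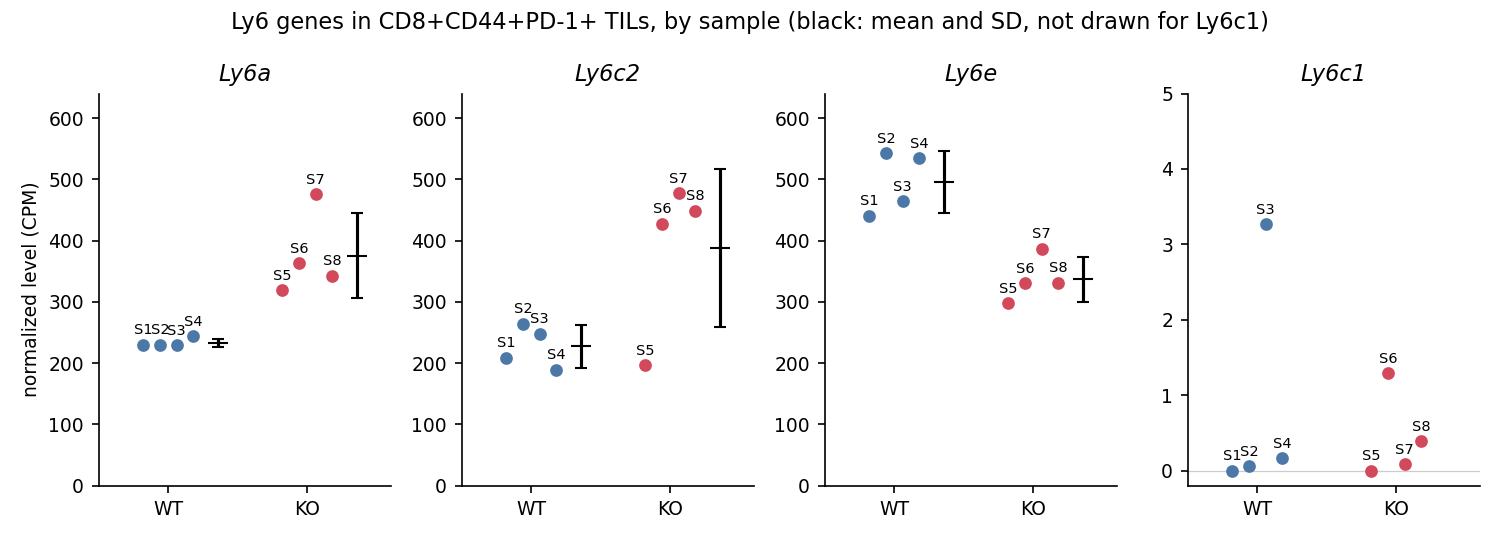
Level of *Ly6a*, *Ly6c2*, *Ly6e* and *Ly6c1* in each sample in CPM (vertical axis, with its own range for *Ly6c1*), for WT (S1 to S4, blue) and KO (S5 to S8, red), with the mean and SD of 4 samples in black except for *Ly6c1*. All KO points lie above WT for *Ly6a* and below WT for *Ly6e*, and the S5 point of *Ly6c2*, at 196.7 CPM, lies among the WT points.

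The share of *Ly6e* in the Ly6 counts was lower in every KO sample than in every WT sample, while the sum of the 4 genes was not shown to differ. The summed level of the 4 genes was 957 ± 65.1 CPM in WT and 1100 ± 216 in KO (SD, n = 4; exact two-sided permutation test, p = 0.286, adjusted over 4 comparisons 0.381). *Ly6e* gave 51.7% ± 2.71 of the counts of the 4 genes in WT and 31.1% ± 3.7 in KO. *Ly6a* gave 24.4% ± 1.7 and 34.4% ± 3.8, and *Ly6c2* gave 23.8% ± 3 and 34.5% ± 7.09.

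Ratios within a sample are free of the scaling between samples. The ratio of *Ly6a* to *Ly6e* counts was 0.522, 0.424, 0.493 and 0.456 in the WT samples S1 to S4, and 1.07, 1.1, 1.23 and 1.03 in the KO samples S5 to S8. *Ly6e* had more counts in every WT sample and *Ly6a* in every KO sample, whereas per kilobase of exon *Ly6a* was above *Ly6e* in both groups. On the log2 scale the ratio was 1.23 higher in KO (exact two-sided permutation test, p = 0.0286, the smallest that 4 against 4 samples allow; adjusted over 4 comparisons 0.0571, which misses 0.05), and 1.17 to 1.27 when any 1 sample was left out. The ratio of *Ly6c2* to *Ly6e* was also higher in all 4 KO samples, by 1.26 on the log2 scale (exact p = 0.0286, adjusted 0.0571), with S5 at a ratio of 0.66 against 1.23 to 1.35 in S6 to S8 and 0.354 to 0.534 in WT. This comparison was added after the values were seen. The ratio of *Ly6c2* to *Ly6a* had a log2 mean of -0.05 ± 0.26 in WT and -0.02 ± 0.48 in KO, a difference of 0.03 within the spread of both groups (exact p = 0.914).

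**Figure D2:**
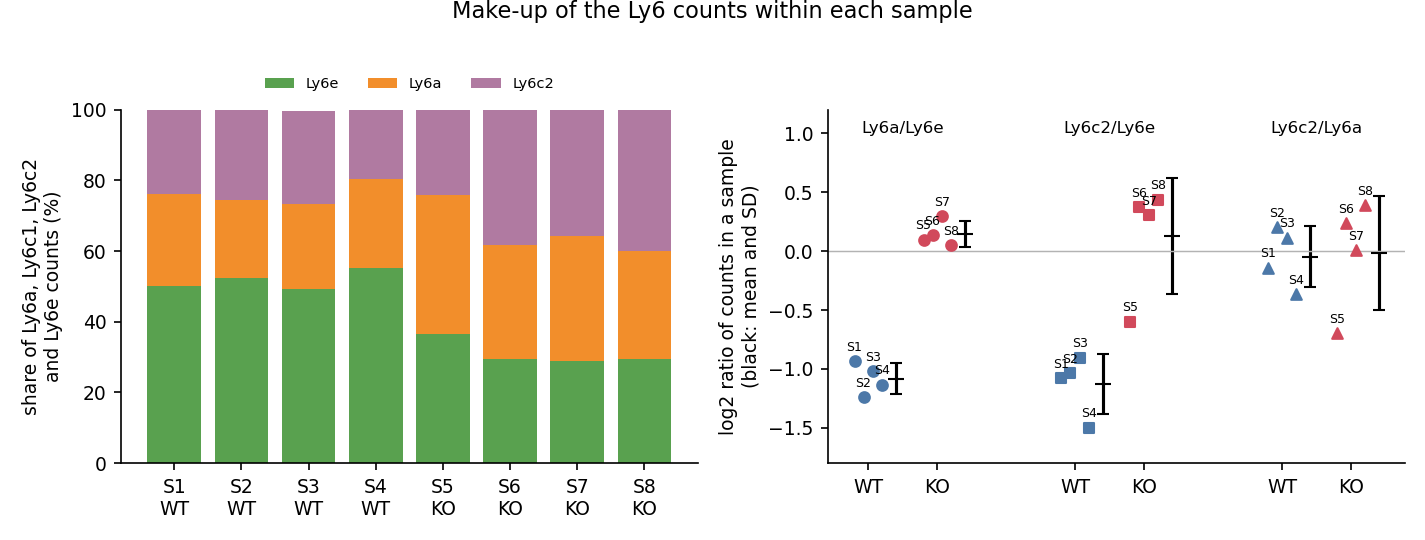
Left, share of *Ly6e*, *Ly6a* and *Ly6c2* in the counts of the 4 Ly6 genes for each sample in percent; *Ly6c1*, at 0.346% or less, is too small to see. Right, log2 ratios of counts within each sample for WT (blue) and KO (red), with the mean and SD of 4 samples in black; the *Ly6a* to *Ly6e* ratio is below 0 in all WT and above 0 in all KO samples.

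S5 was not low for *Ly6c2* alone. *Ly6a* and *Ly6e* were also lowest in S5 among the KO samples, at 0.81 and 0.853 times the mean of S6 to S8. Of 58 interferon target genes, 54 (93.1%) were lowest in S5 among the KO samples, against 29.2% of all tested genes. Among all 8 samples, 31 of the 58 were lowest in S5, as were 2710 of the 15378 tested genes. All 58 were below the mean of S6 to S8 in S5, as were 52.4% of all tested genes, with a median log2 difference of -0.62. *Oasl1*, a target of type I interferon, was at 0.525 CPM in S5 and at 5.9, 4.42 and 9.95 CPM in S6 to S8. S5 was singled out after its values were seen, and genes of 1 sample are not replicates, so these counts describe the sample. The transcript of the type II ligand, *Ifng*, was at 389 CPM in S5 and at 479, 460 and 520 CPM in S6 to S8. Macrophage markers other than *Ccr2* summed to 99.3 CPM in S5, within the KO range. The part of the interferon target genes in the low *Ly6c2* of S5 was not tested.

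**Figure D3:**
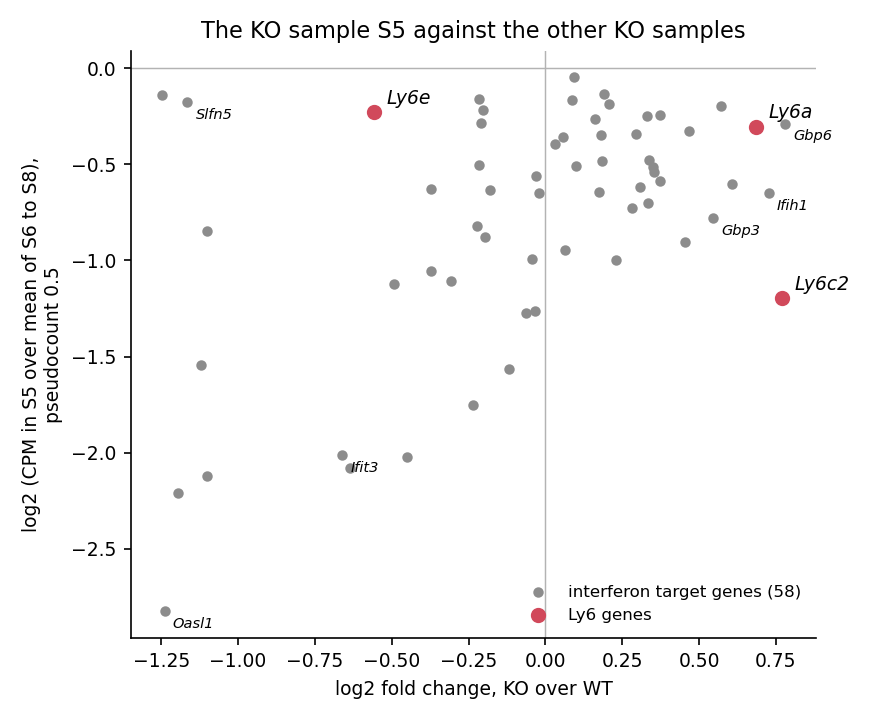
Each point is a gene, with its log2 fold change of KO over WT on the horizontal axis and the log2 ratio of its level in S5 to the mean of S6 to S8 (pseudocount of 0.5 CPM) on the vertical axis. The 58 interferon target genes (grey) and the 3 tested Ly6 genes (red) all lie below 0 on the vertical axis, and *Ly6c2* lies lower than *Ly6a* and *Ly6e*.

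Between the groups, interferon target genes were called in both directions. Of the 58 target genes, 3 were called higher and 2 lower (8.62%, against 4.9% of all tested genes in either direction), with a median log2 fold change of 0.04 against -0.01 over all tested genes. The higher genes were *Gbp6* (0.78, adjusted p = 0.00138) and *Irgm2* (0.61, not called without S3, adjusted p = 0.0194), which encode interferon-inducible GTPases of cell-autonomous defence, and *Ifih1* (0.73), which encodes the RNA sensor MDA5. The lower ones were *Oas1a* (-1.25, not called without S5, adjusted p = 0.0106), an oligoadenylate synthetase, and *Slfn5* (-1.17, adjusted p = 3.73e-05). Without S5, 5 were called higher and 1 lower, where 4.51% of all genes were called, and *Gbp3* (0.71, adjusted p = 0.00107) and *Slfn8* joined the higher ones. *Gbp3*, another GTPase of this kind, was at 54.5, 58.7, 50.7 and 53.5 CPM in WT and 51.4, 77.7, 93.6 and 94.4 CPM in KO, and so had S5 within the WT range, as *Ly6c2* did.

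Among the ligands, *Ifng* had a log2 fold change of 0.49 (SE 0.14, adjusted p = 0.033) and was not called. The 6 receptor genes were the interferon receptor genes *Ifnar1*, *Ifnar2*, *Ifngr1* and *Ifngr2*, with *Il27ra* and *Il6st* beside them. Of these, *Il6st*, which encodes gp130, was called higher (1.12), and *Ifngr2* and *Il27ra* were called lower (-3.32 and -0.63), where 4.9% of all tested genes were called. *Ifnar1* (0.36, adjusted p = 0.0268) and *Ifnar2* (0.47, adjusted p = 0.0525) were not called. For both, every KO sample lay above every WT sample, and groups did not overlap for 17.3% of tested genes. *Ifngr2* was at 2.44, 5.56, 14.8 and 4.54 CPM in S1 to S4 and 0.197 to 1.05 CPM in KO, and its highest level was in S3, the sample with the highest macrophage markers. Without S3 its log2 fold change was -2.63 (adjusted p = 0.0302) and it was not called. The part of macrophage markers in its difference was not tested. *Ifngr1* was at 375 ± 39 CPM in WT and 365 ± 35.7 in KO. Of 12 signalling genes, *Irf8* was called lower (-0.74) and 0 higher with all 8 samples, and 1 was called higher without S5 and 1 without S3, where 4.51% and 3.79% of all genes were called in either direction. These were *Stat2* without S5 (0.65, adjusted p = 0.00256) and *Irf9* without S3 (0.59, adjusted p = 0.00305). With all 8 samples both passed the p threshold, as did 5.63% of tested genes, but not the fold (0.57 and 0.49). The log2 fold change was positive for 9 of the 12 genes and for 7479 of all 15378 tested genes. *Irf1* was at 0.27 (adjusted p = 0.32). Among 6 inhibitors, *Usp18*, which encodes the protease that removes ISG15 and restrains type I interferon signalling, was called higher (1.38), and the phosphatase gene *Ptpn6* lower (-0.62), a call lost without S3 (adjusted p = 0.0176).

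Neighbouring Ly6 genes on chromosome 15 differed in opposite directions. *Ly6e* (ENSMUSG00000022587.14, chr15:74955051-74959905, plus strand), *Ly6a* (ENSMUSG00000075602.10, chr15:74994877-74998031, minus strand), *Ly6c1* (ENSMUSG00000079018.10, chr15:75044018-75048830, minus strand) and *Ly6c2* (ENSMUSG00000022584.14, chr15:75108158-75111970, minus strand) lie within 157 kb of GRCm38. *Ly6e*, which was lower, and *Ly6a*, which was higher, are separated among family genes by *Ly6i* alone, and *Ly6c1*, between *Ly6a* and *Ly6c2*, was nearly silent. Of the 22 family genes of this cluster from *Psca* to *Gpihbp1*, 11 had no counts in any sample and 6 were tested. The 4 genes together held 131707 counts, and the other genes of the cluster held 996.

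Of those others, *Ly6a2* came closest to a call. This gene beside *Ly6c2*, annotated as a transcribed pseudogene, was at 2.32, 1.47, 2.77 and 2.39 CPM in the WT samples S1 to S4, and at 4.2, 8.16, 7.85 and 7.32 CPM in the KO samples S5 to S8. The groups did not overlap, and S5 was again the lowest KO sample. Its log2 fold change was 1.62 (SE 0.39) with an adjusted p of 0.0114, and it was called without S5 (1.8, adjusted p = 0.0064) and by DESeq2 (1.63, adjusted p = 8.16e-04), which called 7.01% of the same genes. Only 18 of its 804 windows of 42 bases were also found in *Ly6c2*, and 33 in *Ly6a*. *Ly6i* was at -0.24 (SE 0.94) and *Ly6m* at 0.61 (SE 1.14), both with few counts. The 7 untested neighbours of the 4 genes, all of them predicted genes, had 81 counts or fewer each. The most were in *Gm8000*, annotated as a pseudogene and lying between *Ly6i* and *Ly6a*, with 10 counts in WT and 71 in KO. It was at 0 to 0.33 CPM in WT and 0.394 to 2.59 CPM in KO, near the floor, and its difference was not tested.

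**Figure D4:**
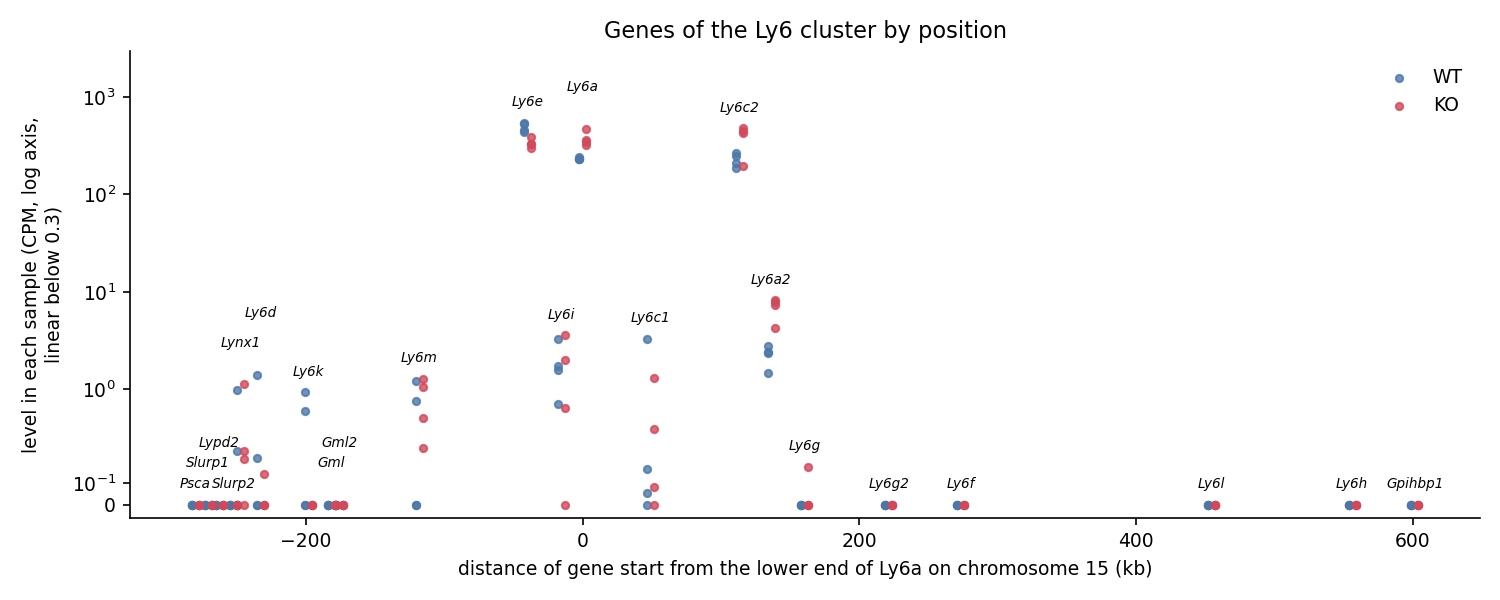
Level of each family gene of the chromosome 15 cluster in every sample in CPM (vertical log axis, linear below 0.3), by the distance of the gene's start from the lower end of *Ly6a* in kb. WT samples are blue and KO samples red; *Ly6e*, *Ly6a* and *Ly6c2* are above 100 CPM in all samples, and the other genes are below 10 CPM.

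The promoters of *Ly6c2* and *Ly6a2*, which lie beside each other, are shown for their likeness. These are RefSeq windows of GRCm38.p6 from 250 bases before to 50 after the start, on the minus strand, at chr15:75111922-75112221 and chr15:75135079-75135378. They aligned over 300 positions, of which 290 were identical, and capitals mark bases that differ or lie opposite a gap.
Ly6c2: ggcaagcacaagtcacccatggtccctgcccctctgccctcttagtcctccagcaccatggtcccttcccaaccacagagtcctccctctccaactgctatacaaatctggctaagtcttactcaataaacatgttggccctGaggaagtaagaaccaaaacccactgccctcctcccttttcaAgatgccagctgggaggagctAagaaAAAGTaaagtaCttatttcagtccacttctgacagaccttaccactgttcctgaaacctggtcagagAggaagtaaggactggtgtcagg
Ly6a2: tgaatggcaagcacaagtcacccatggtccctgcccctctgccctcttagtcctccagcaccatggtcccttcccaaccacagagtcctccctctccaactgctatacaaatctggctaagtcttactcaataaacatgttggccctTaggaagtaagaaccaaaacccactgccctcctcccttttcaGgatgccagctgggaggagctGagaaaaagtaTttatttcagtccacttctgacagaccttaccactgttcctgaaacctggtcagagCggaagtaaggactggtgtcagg
The *Ly6c1* window was identical to that of *Ly6c2* at 208 of 282 aligned positions (73.8%). No window was matched for *Ly6a* and *Ly6e*. All 5 windows of *Ly6c1*, *Ly6c2* and *Ly6a2* were searched on both strands for the interferon-stimulated response element (GAAA, any 2 bases, GAAA), the gamma-activated site (TTCNNNGAA) and the TCF/LEF motif (CTTTGA) (matches to different motifs were allowed to overlap). None held a match, and 3.44%, 8.3% and 16% of all 32851 promoter windows held one. This says only that these letters are not in these windows.

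Among the rest of the Ly6/uPAR family, 8 of 39 genes passed the filter on low counts and none was called by edgeR's quasi-likelihood test. Of the 8, 3 had an unadjusted p under 0.05, as did 3774 of all 15378 tested genes, and 1, *Ly6a2*, was called by DESeq2. Besides those above, the tested family genes were *Ly6g5b* (0.29), *Cd59b* (1.36), *Plaur* (0.87), which encodes the urokinase receptor, *Lypd6b* (1.23) and *Spaca4* (2.79, with a mean of 0.286 CPM in WT and 2.12 in KO). GPI anchors, which Ly6 proteins need to reach the surface, are made by a machinery of which 27 genes were tested. Of these, 0 were called by edgeR's quasi-likelihood test or by DESeq2, with a median log2 fold change of -0.11. An unadjusted p under 0.05 was found for 3 of them, beside 3774 of all 15378 tested genes. With 4.9% of all tested genes called, neither count of 0 is a result about its list. *Piga*, which encodes the catalytic subunit of the first step, was at 29.1 CPM in WT and 19.2 in KO (-0.61, adjusted p = 0.0281).

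Some other genes of GPI-anchored lymphocyte proteins were called higher. Of 15 tested, 5 were called higher and 0 lower by edgeR's quasi-likelihood test. In these directions 2.91% and 1.99% of all tested genes were called. Of the others, 1 was lower at an unadjusted p under 0.05, which 3774 of all 15378 tested genes had in either direction. DESeq2 also called *Izumo1r*, the folate receptor 4 gene, higher (1.21, adjusted p = 0.00479) and *Cd160* lower (-0.66, adjusted p = 0.00413). The median log2 fold change was -0.14. *Cd24a*, which encodes heat-stable antigen, was at 1.54 ± 0.93 CPM in WT and 31.2 ± 10.8 in KO (4.32). *Cd109* was at 0.653 ± 0.479 CPM and 38.1 ± 14.1 (5.8). *Nt5e*, which encodes the ecto-enzyme CD73, was at 103 ± 10.6 and 227 ± 50.2 CPM (1.14). *Prnp*, the prion protein gene (1.35, not called without S5, adjusted p = 0.0117), and *Sema7a*, which encodes a semaphorin (1.09), completed the 5. The log2 fold change of *Ly6a*, 0.69, was smaller than that of each of these 5 genes.

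*Ly6a* and Ly6C are read as markers of CD8+ T cell state, and genes of those states were called in both directions. Of 20 memory and progenitor genes, 3 were called higher and 2 lower, where 4.9% of all tested genes were called. *Slamf6* (1.51), the interleukin 7 receptor gene *Il7r* (1.2) and *Cd44*, whose protein the cells were sorted by, were the higher ones, and the homing receptor gene *Ccr7* (-0.9) and the survival gene *Bcl2* (-0.84) were the lower ones. *Bcl2* was not called without S5 (adjusted p = 0.015), without S3 (adjusted p = 0.0195) or by DESeq2 (adjusted p = 0.0175). *Lef1* was called higher without S5 (0.86, adjusted p = 0.00277) and by DESeq2 (0.71, adjusted p = 0.00474). In both settings 4 of the 20 were thus called higher and 1 lower, where 4.51% and 7.01% of all genes were called. Of 22 effector and exhaustion genes, *Cd101* (2.42) and *Havcr2* (1.08), which encodes TIM-3, were called higher and *Tox* lower (-1.17), beside the same 4.9%.

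The 3 genes nearest to each Ly6 gene in profile were found by the root mean square difference of log2 CPM centred on each gene's mean over the 8 samples, among 9237 genes with a mean log2 CPM above 3. For *Ly6a* these were *Mphosph8* (0.0738), *Acot2* (0.0789) and *Ctla4* (0.0798), against a spread of *Ly6a* itself of 0.369. *Ctla4*, the gene of the inhibitory receptor, was called higher (0.79, adjusted p = 3.54e-04). For *Ly6c2* they were *Mindy3* (0.19), *Gbp3* (0.214) and *Rbm4b* (0.217), against a spread of 0.526. For *Ly6e* they were *Rpl39-ps* (0.0667), *Rnf7* (0.0746) and *Ppp1r16a* (0.0753), against 0.308. The nearest genes of *Ly6c2* were farther from it than those of *Ly6a* and *Ly6e* were from theirs.

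Other cells can carry Ly6 transcripts, and in bulk RNA fewer cells of a type and less RNA per cell cannot be told apart. For *Ly6c2*, which monocytes and neutrophils express, 13 of 16 tested macrophage and monocyte markers were called lower in KO, led by *Ms4a7* (-4.27) and the complement gene *C1qa* (-3.93), and *Ccr2*, a chemokine receptor gene of monocytes and activated T cells, was called higher (0.98). Their part in the *Ly6c2* difference was not tested. Of 8 neutrophil markers, *S100a9*, *Retnlg* and *Cxcr2* had 0 counts in all samples, and the summed level was 3.55 to 9.95 CPM in WT and 5.49 to 14.6 in KO. Of the 3 tested, 0 were called with all 8 samples by edgeR's quasi-likelihood test. *Mpo* was called higher without S3 (2.36, adjusted p = 0.00694) and by DESeq2 (1.94, adjusted p = 0.00114). *Csf3r* was at -2.49 by DESeq2 (adjusted p = 0.079). For *Ly6a* and *Ly6c1*, which endothelium expresses, 2 of 9 endothelial markers were tested. *Emcn* and *Cldn5* had 0 counts, *Cdh5* was at 0.246 CPM or less and *Kdr* at 0.523 or less, whereas *Pecam1* was called higher (1.48; 22.9 ± 3.06 CPM in WT and 63.7 ± 9.18 in KO); its part in the level of *Ly6a* was not tested. The summed levels of fibroblast markers, with *Lum* and *Pdgfrb* at 0, were 0.99 to 6.28 CPM in WT and 2.81 to 4.4 in KO. B cell and plasma cell markers summed to 46.9 to 81.9 CPM in WT and 17.6 to 44.6 in KO (*Ighm* called lower, -1.5, but not without S3, adjusted p = 0.0134), dendritic cell markers to 86.9 to 108 and 92.4 to 126, and NK cell markers to 11.7 to 37.8 and 5.91 to 14.4 (*Fcer1g* called lower, -2.4, but neither without S3, adjusted p = 0.0341, nor without S5, 0.0129). The NK cell sum was highest in S3, the sample with the highest macrophage marker score, at 37.8 CPM, and was 11.7, 12.3 and 19.6 CPM in S1, S2 and S4. The part of macrophages in this sum was not tested. The 4 tested NK cell markers went in both directions, 2 up (*Klrb1c* and *Klrb1f*) and 2 down (*Fcer1g* and *Tyrobp*). DESeq2 called 1 of them higher, *Klrb1c* (3.13, adjusted p = 0.00176), and 2 lower, among them *Fcer1g*. Of the 4 tested dendritic cell markers, 0 were called with all 8 samples, and the log2 fold change was positive for 1 and negative for 3. *Tcf4* was called higher (0.72, adjusted p = 0.00212) and *Zbtb46* lower (-1.09, adjusted p = 0.0059) by DESeq2. Without S5, *Zbtb46* was also called lower (-1.35, adjusted p = 0.00638). Red cell markers summed to 4.96 to 13.4 and 0 to 0.919 CPM (*Hbb-bs* called lower, -4.04, but not without S3, adjusted p = 0.0306), and epithelial markers of the tumor line to 13.5 to 30.1 and 21 to 32.8. The markers of the sorted CD8+ T cells themselves summed to 5624 to 6181 CPM in WT and 5411 to 5952 in KO (*Cd44* called higher, 0.86), with *Cd8a* at -0.27 (adjusted p = 0.0676) and *Cd8b1* at -0.39 (adjusted p = 0.0158). Of 6 markers of CD4+ T cells and regulatory T cells, *Cd40lg* (2.42), *Ctla4* (0.79) and *Il2ra* (0.8) were called higher. Activated CD8+ T cells can express *Ctla4* and *Il2ra* as well, and *Ctla4* was at 267 to 309 CPM in WT. *Ikzf2* went the other way, at -0.26 by DESeq2 (adjusted p = 0.19), and was not called. *Cd4* was at 4.54 ± 2.07 CPM in WT and 14.3 ± 8.66 in KO (1.65, adjusted p = 0.0161) and was called by DESeq2 (1.66, adjusted p = 0.00143), and *Foxp3* was at 1.1 ± 0.933 and 2.42 ± 1.2 CPM (1.14, adjusted p = 0.37). The part of such cells in the Ly6 differences was not tested. Without S3 the log2 fold changes were 0.68, 0.81 and -0.59 for *Ly6a*, *Ly6c2* and *Ly6e*. With the macrophage marker score as a covariate, *Ly6a* was at 0.45 (SE 0.35, adjusted p = 0.765), *Ly6c2* at 0.52 (adjusted p = 0.858) and *Ly6e* at -0.84 (adjusted p = 0.457). That score did not overlap between the groups, so it and genotype cannot be told apart in this fit.

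**Figure D5:**
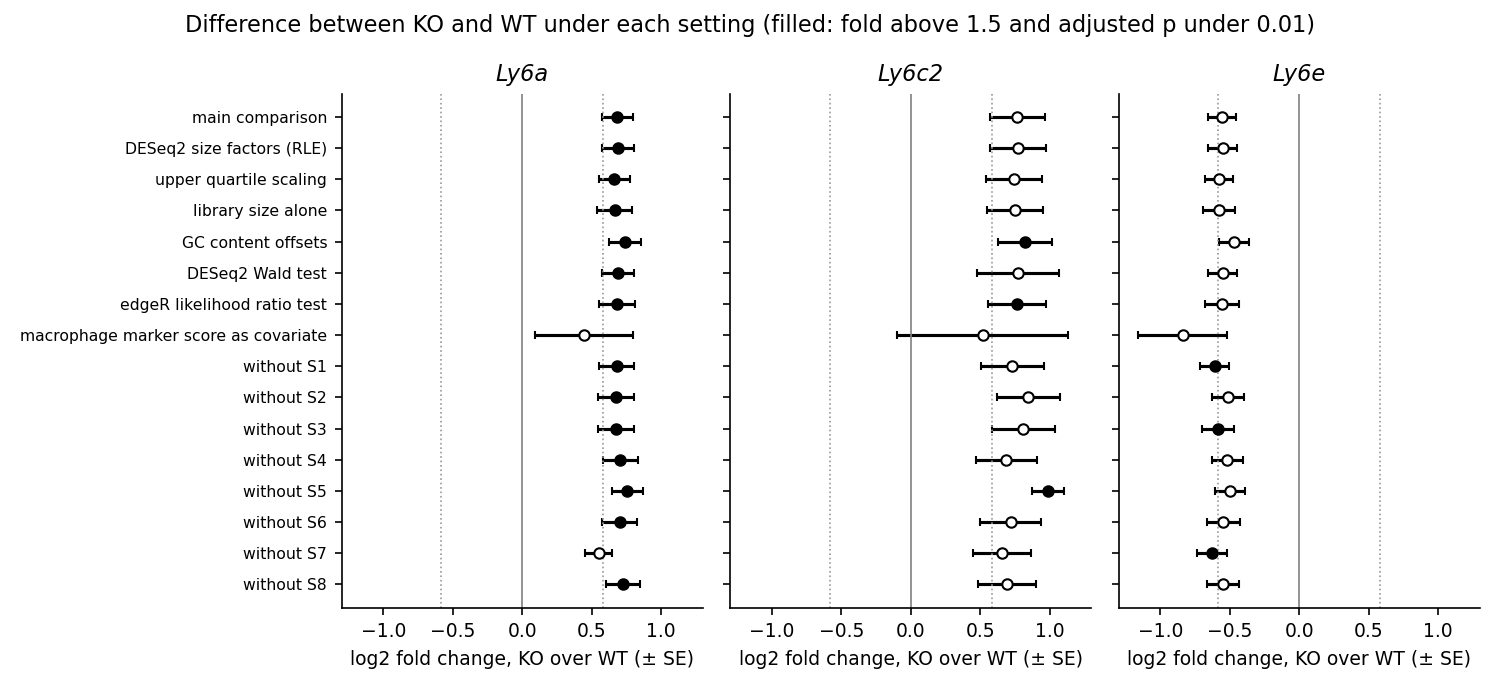
Log2 fold change of KO over WT with its SE (horizontal axis) for *Ly6a*, *Ly6c2* and *Ly6e* under other processing and with each sample left out (rows); filled points pass both thresholds and dotted lines mark a 1.5-fold change. The direction of all 3 genes is the same in every row. Of the settings plotted, which are not all that were tried, *Ly6a* loses its call without S7 and with the macrophage marker score as a covariate, *Ly6c2* gains one without S5, with GC offsets and with the likelihood ratio test, and *Ly6e* gains one without S1, S3 or S7.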

How the data were processed

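The RNA-seq data were gene counts of 4 WT and 4 KO samples of sorted TILs. The authors aligned paired reads with STAR 2.4.0e to GRCm38, counted them on GENCODE genes with featureCounts 1.5.0 and deposited raw counts with no normalization. The authors' own test used DESeq2 after a GC correction. Columns S1 to S8 took their genotype from sample names in a supplementary plot and could not be matched to replicate numbers. Where nothing says that samples came from separate litters or days, p-values measure the spread between these samples.

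Counts were filtered with filterByExpr, scaled with TMM (factors 0.94 to 1.046) and tested with glmQLFTest of edgeR 4.0.16 in R 4.3.3, with Benjamini-Hochberg adjustment over 15378 genes. SE was |log2 fold change| divided by the root of F. The fit was tested on simulated data with 200 changed genes. Ratios within a sample used a pseudocount of 0.5 and exact permutation tests over the 70 arrangements. Coordinates, exon lengths and transcripts came from GENCODE M21, which matched 55154 gene IDs, and promoters from RefSeq. Alternatives used other scaling, filters and thresholds, DESeq2 1.42.0, GC offsets from mgcv 1.9.3, protein-coding genes only, a macrophage marker covariate and each sample left out. A total of 3 counts was taken as the floor, and floors cover counting error only.

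The 4 genes and all lists were chosen with earlier results of these data known. Named are the 4 genes, tested Ly6/uPAR genes, the called genes with the 2 highest and 2 lowest log2 fold changes of each list, *Ifng*, *Ifngr1*, *Irf1*, *Kdm1a*, neighbours and the 3 nearest profiles; 1 further gene of this rule is not reported here. *Oasl1*, *Gbp3*, *Slfn8*, *Ifnar1*, *Ifnar2*, *Stat2*, *Irf9*, *Lef1*, *Piga*, *Cd160*, *Izumo1r* and single marker genes were chosen after their values were seen.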

Additional observations from a re-analysis of the deposited data

Results flagged for a closer look

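Within a group of 4 samples, a sample was looked at again where its gap to the nearest other sample exceeded Dixon's 95% critical share of the group's range. This was asked of the 3 tested Ly6 genes and 2 ratios in both groups, 10 times in all, and chance alone gives about 1 in 20. *Ly6c2* in S5 was apart from the other KO samples, with a gap of 0.875 of the range, with a log2 CPM of 7.62 where S6 to S8 had 8.74 to 8.9. *Ly6a* in S4 was apart from the other WT samples, with a gap of 0.929 of the range, with a log2 CPM of 7.93 where S1 to S3 had 7.84 to 7.85, a range so narrow that S4 still lay far below every KO sample.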

How the results depend on the processing

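No paired analysis was possible because the columns carry no replicate numbers. *Ly6a*, *Ly6c2* and *Ly6e* kept their direction under all 20 alternatives each. *Ly6a* was no longer called with glmTreat against a 1.5-fold change (0.69, adjusted p = 0.707), with the macrophage marker score as a covariate (0.45) or without S7 (range over left-out samples 0.55 to 0.76). *Ly6c2* passed both thresholds without a filter (0.77), with the likelihood ratio test (0.77, adjusted p = 0.00344), at an adjusted p under 0.05 (0.77), with GC offsets (0.82) and without S5 (range 0.65 to 0.99). *Ly6c1* plus *Ly6c2* passed in the same settings, at 0.77, 0.76, 0.76 and 0.82 (range 0.65 to 0.99). DESeq2's Wald test gave *Ly6c2* an adjusted p of 0.0587. *Ly6e* passed without S1, S3 or S7 (range -0.63 to -0.501). *Ly6c1*, with few counts, turned to 10.2 with the covariate and to 2.56 without S3 (range -2.27 to 2.56). The *Ly6a* to *Ly6e* ratio held with a pseudocount of 2 (1.23), and that of *Ly6c2* to *Ly6a* ranged from -0.1 to 0.26 over left-out samples.

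Over all genes, 447 were called higher and 306 lower. The counts were 165 and 130 with glmTreat, 695 and 551 at an adjusted p under 0.05, and 19 and 0 with the covariate in edgeR's quasi-likelihood test, where 664 lower genes had an unadjusted p under 0.05. Lower genes numbered 531 without a filter, 461 with DESeq2, 481 with the likelihood ratio test and 199 to 303 with a sample left out, the lowest without S2. Higher genes numbered 347 to 452 with a sample left out. The causes were not tested. The depth limits *Ly6c1* most, whose 71 counts cannot show a change. Lists were counted again without S5 and S3 after the data were seen.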
